A study of Mus musculus with 24 samples.

Results

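The genes described are 8 transcripts linked to growth arrest and tumour dormancy: Gas6, the receptor genes Axl, Mertk and Tyro3, Gas1, and the transcription factor genes Bhlhe40, Bhlhe41 and Nr2f1. They were chosen by name and matched by symbol without regard to case in 3 tables of gene counts, where all 8 were found among 24034 symbols present in all 3 tables. The counts came from bulk RNA sequencing of 24 libraries, made from tumour cells of 3 mouse mammary carcinoma lines, 4T07, D2A1 and EMT6. Female Balb/cJ mice carried tumours grown from 250000 injected cells in the mammary fat pad, collected after 14 days. All groups share transduction with mCherry and with mVenus joined to p27K, a reporter of resting cells built from the cell cycle inhibitor p27. From each of 4 tumours per line a p27K high gate (the quiescent population, n = 4 libraries) and a p27K negative gate (the proliferative population, n = 4 libraries) were sorted, and every comparison was made within tumours. No group without the reporter was used here, each is an established cell line, and the lines were sequenced in different runs, so line and run cannot be told apart.

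GAS6 and protein S are secreted ligands that bridge the lipid phosphatidylserine to the TAM receptor kinases TYRO3, AXL and MERTK, which drive survival and motility of carcinoma cells and the clearance of dying cells by macrophages. GAS1 is a membrane-anchored protein first found in fibroblasts that stopped growing, related to GDNF receptors and acting as a co-receptor for hedgehog ligands. BHLHE40 and BHLHE41 (also called DEC1 and DEC2) are repressors that bind E-box motifs of clock genes and are induced by low oxygen, and BHLHE41 and the orphan nuclear receptor NR2F1 have been tied to dormancy of disseminated human carcinoma cells.

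Library depth in 4T07 was 27887221 to 45460880 counts for p27K high cells and 28961831 to 35197694 counts for p27K negative cells, and in EMT6 it was 13769682 to 20142013 against 16988365 to 17508301 counts. D2A1 libraries held 6727594 to 20174767 counts for p27K high cells against 1335433, 2110563, 1802042 and 15641189 counts for p27K negative cells of tumours 1 to 4, so low transcripts were measured least precisely there. The 4T07 p27K high library of tumour 2 stood apart with 13500 genes detected, the fewest of the 8 libraries of its line, and values without it are given for the genes that stood out in it. Mki67, a marker of cycling cells, differed by -6.52, -5.92 and -5.31 on the log2 scale in 4T07, D2A1 and EMT6, and Cdkn1b, which encodes p27 and can also collect reads from the reporter, by 0.89, 0.46 and 0.54. The summed level of 9 mammary epithelial markers was 436 to 575 against 569 to 691 CPM in the p27K high and p27K negative libraries of 4T07, 92.6 to 203 against 63.4 to 506 CPM in D2A1 and 635 to 896 against 779 to 1067 CPM in EMT6, with 1 rise and 2 falls of 7 tested, 1 fall of 2 and 2 rises and 1 fall of 6. Of these markers, Krt8 averaged 240 against 332 CPM in 4T07, 7.97 against 58.8 CPM in D2A1 and 643 against 790 CPM in EMT6. Krt18 averaged 225 against 265, 129 against 112 and 69.1 against 71.8 CPM. Epcam averaged under 4 CPM in every gate of every line, and the keratin of basal cells Krt5 was at or near 0. The D2A1 p27K negative libraries were uneven, with Cdh1 at 0 to 80.6 CPM and Epcam at 0 to 10.4 CPM. The sum of 11 fibroblast markers was 1580 to 2398 against 629 to 849 CPM in 4T07, 888 to 1102 against 680 to 875 CPM in D2A1 and 6139 to 8107 against 4853 to 6465 CPM in EMT6, with 4 rises and 2 falls of 9 tested, 3 and 4 of 10 and 6 and 0 of 8. In 4T07 it rested mainly on Dcn (mean of 1139 against 265 CPM) and Pdgfra (702 against 313 CPM). In D2A1 the higher sum came from Pdgfra (523 against 248 CPM) and Pdgfrb (312 against 141 CPM), while Col1a1 (69.7 against 176 CPM) and Col1a2 (10.8 against 127 CPM) were lower. CPM stands for counts scaled to library size, here with TMM normalization factors.

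Each change below is a log2 ratio, p27K high over p27K negative, with its standard error over n = 4 tumour pairs per line. A gene was called where the Benjamini-Hochberg adjusted p of edgeR's quasi-likelihood test, with the tumour as a block, was under 0.05. The genes did not move as a group: where called, the Gas6, Axl, Mertk and Tyro3 transcripts were lower in p27K high cells, and the transcription factor genes and Gas1 were higher. In 4T07, 3 of 7 genes tested rose (Bhlhe40, Bhlhe41 and Nr2f1) and 4 fell (Gas6, Axl, Mertk and Tyro3), and Gas1 had too few counts to be tested. In that line 45.7% of all 12849 genes tested were called, 22.1% as rises and 23.6% as falls. In D2A1, 3 of 7 rose (Gas1, Bhlhe40 and Bhlhe41), 1 fell (Tyro3) and 3 did not pass the test (Axl, Mertk and Nr2f1), against 29.5% of all genes called (14.9% as rises and 14.7% as falls), and Gas6 was too low to test. In EMT6, 4 of 6 rose (Gas1, Bhlhe40, Bhlhe41 and Nr2f1) and 2 fell (Axl and Tyro3), against 49.2% of all genes called (24.1% as rises and 25.1% as falls), with Gas6 and Mertk too low to test. The genes tested were those that passed edgeR's filter on low counts, so these counts leave out the genes named as too low. Gas6 in 4T07 passed that filter through its p27K negative libraries, the gate where it was higher.

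**Figure D1:**
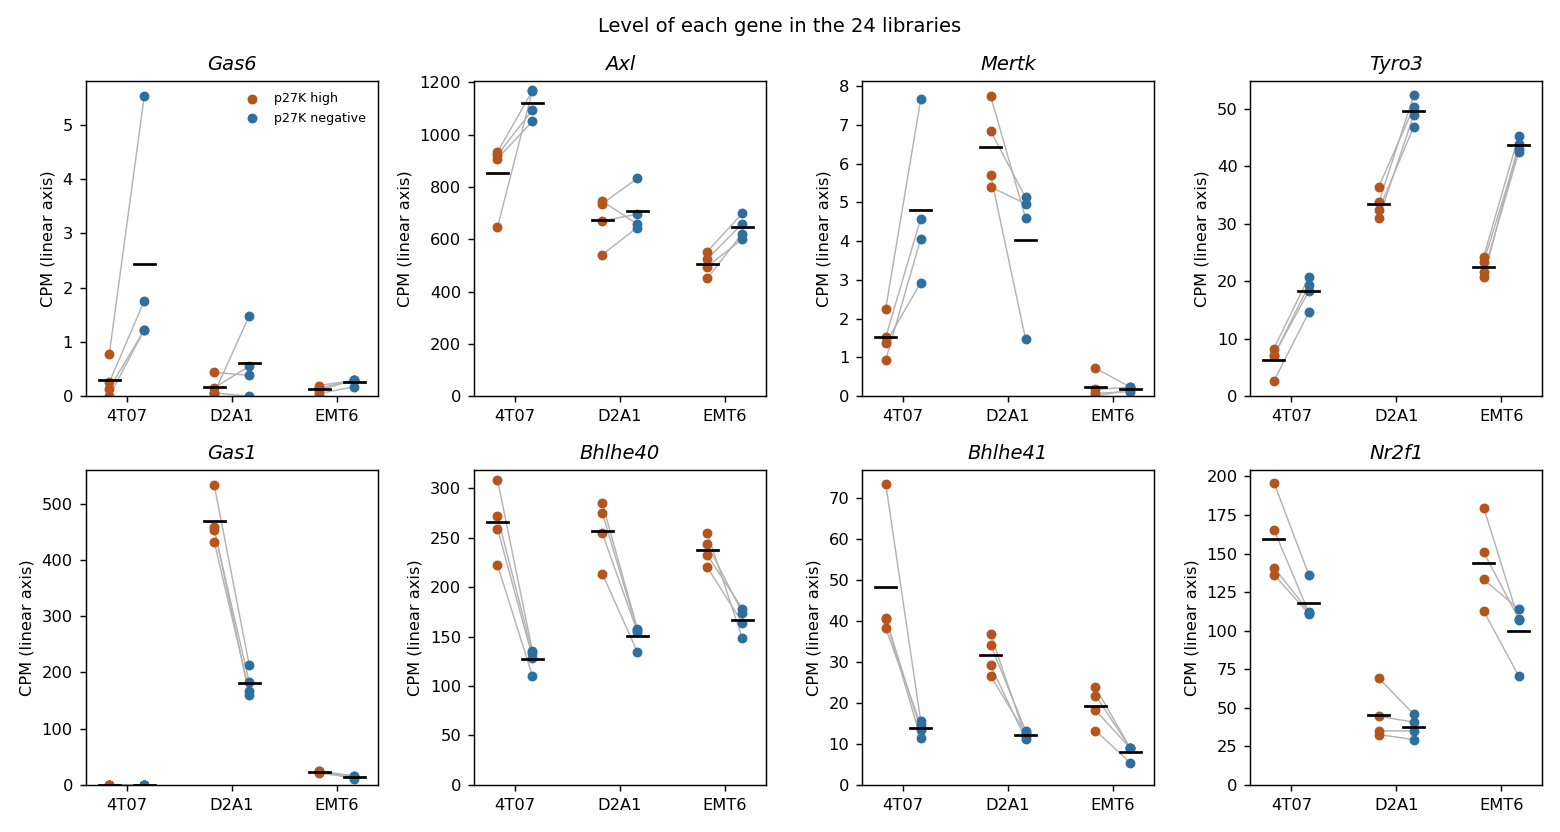
Level of each of the 8 genes in CPM (linear axes from 0) in the 24 libraries, with p27K high libraries left of p27K negative libraries for each line, grey lines joining both gates of a tumour and black bars at the mean of 4. Bhlhe40 and Bhlhe41 were higher in the p27K high gate in 12 of 12 tumours and Tyro3 in 0 of 12, while Gas1 reached 433 to 534 CPM in D2A1 p27K high cells and stayed under 1 CPM in 4T07.

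Gas6, the TAM ligand (chromosome 8, 13465374 to 13494490, minus strand, mm10 coordinates), was a low transcript in all 3 lines. In 4T07 it had 0.139, 0, 0.777 and 0.254 CPM in the p27K high libraries of tumours 1 to 4, against 1.22, 1.22, 5.53 and 1.76 CPM in the p27K negative libraries. Behind these levels stood 6, 0, 22 and 8 counts in the p27K high libraries, against 40, 44, 169 and 64 counts in the p27K negative libraries. The gates did not overlap, and tumour 3 was the highest in both. Gas6 fell by 3.19 ± 0.48 on the log2 scale in 4T07 (SE, n = 4 pairs), a 9.1-fold lower level, with an edgeR adjusted p of 0.00171. It passed the filter on low counts through the p27K negative libraries, where it was higher, so its p-values are not independent of that filter. Leaving out tumour 2, whose p27K high library held no Gas6 count, gave a change of -2.87 (adjusted p of 1.96e-05). In D2A1 the p27K high libraries held 1, 1, 1 and 8 Gas6 counts and the p27K negative libraries 2, 0, 1 and 6, and in EMT6 they held 3, 2, 1 and 2 against 5, 5, 3 and 5. Those counts were too few for a test and show no more than that Gas6 was near the detection limit in both lines. Gas6 overlaps the protein-coding gene Tmem255b on the opposite strand at its 3' end, and with strand use unknown their reads may not be told apart.

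Macrophage transcripts were lower in p27K high libraries of 4T07, as Gas6 was, and so were some other cell type markers given below. The summed level of 16 macrophage and monocyte markers was 204, 219, 189 and 220.0 CPM in the p27K high libraries of tumours 1 to 4, against 666, 852, 1476 and 926 CPM in the p27K negative libraries, and 16 of 16 markers fell. Tumour 3 gave both the highest macrophage sum and the highest Gas6 and Mertk among the p27K negative libraries. Defining markers were present in both gates: C1qa was at 7.13 to 10.8 CPM against 53.7 to 133 CPM, and Ptprc, which encodes the CD45 antigen that cells were stained for, at 4.56 to 12.5 against 19.3 to 38.6 CPM. In D2A1 the sum was 142 to 181 CPM in the p27K high gate against 77.9 to 138 in the p27K negative gate and rested mainly on Cd14, since C1qa was at 0.701 to 2.75 against 1.48 to 3.96 CPM. In EMT6 the sum was 47.7 to 61.2 against 33.6 to 48.5 CPM, with C1qa at 0.131 to 0.814 against 0.701 to 0.935 CPM. In 4T07 the neutrophil marker sum was 18.6 to 58.8 against 59.9 to 74 CPM, with 3 falls of 6 tested. The endothelial sum was 1.62 to 4.53 against 7.96 to 13.2 CPM, and the T and NK sum 0.918 to 1.84 against 2.71 to 4.11 CPM. Dendritic, B cell and pericyte sums of 4T07 overlapped between gates. In D2A1 the endothelial sum was 0.55 to 5.77 against 11 to 26.6 CPM and the neutrophil sum 5.01 to 8.79 against 2.11 to 4.42 CPM. That neutrophil sum rested mainly on S100a8, which averaged 6.62 against 2.76 CPM, while the other markers of its list averaged near 0 in both gates. The part of these markers in the Gas6 and Mertk results was not tested. In bulk libraries, fewer cells of a type and less RNA per cell cannot be told apart.

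**Figure D2:**
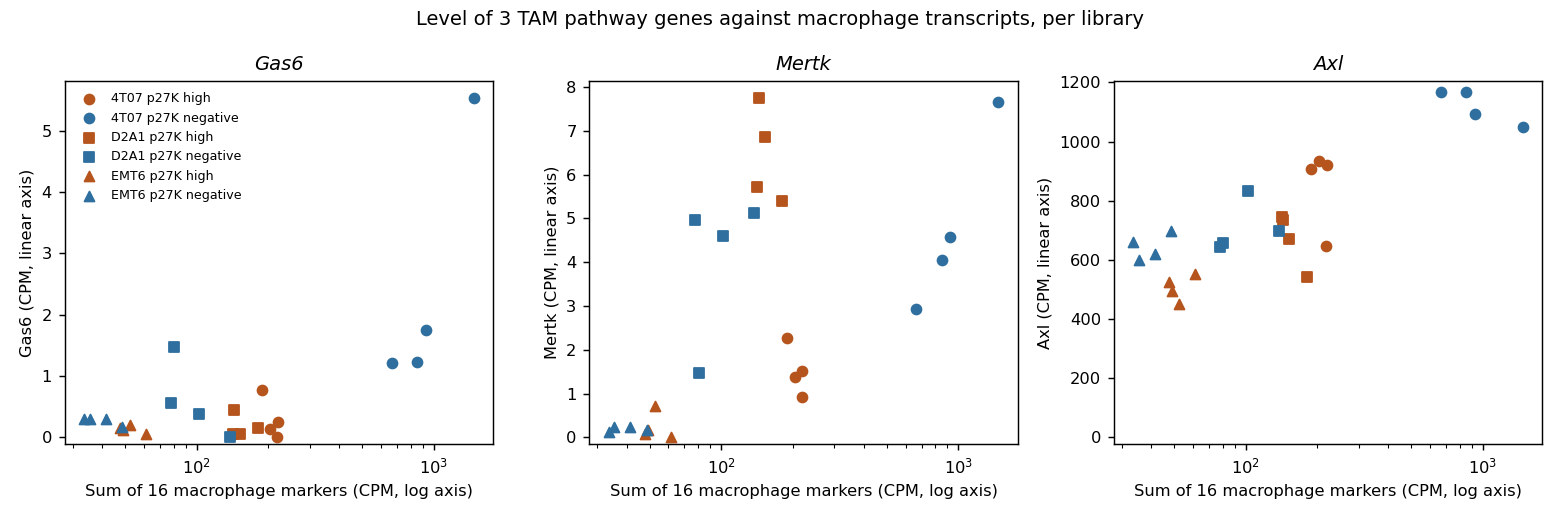
Gas6, Mertk and Axl (CPM, linear axes) against the summed CPM of 16 macrophage markers (log axis) in each of the 24 libraries, with lines by symbol and gates by colour. The 4T07 p27K negative libraries lie at 666 to 1476 CPM of macrophage transcripts, beyond all other libraries, which lie at 33.6 to 220.0 CPM, while D2A1 held Mertk at 1.48 to 7.75 CPM at macrophage sums of 77.9 to 181 CPM.

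Pros1, the gene of protein S, the other TAM ligand, went in opposite directions in 4T07 and D2A1. It had 1.51, 1.22, 5.54 and 4.94 CPM in 4T07 p27K high libraries, against 3.57, 4.31, 8.67 and 8.37 CPM in p27K negative libraries, lower in 4 of 4 tumours although the ranges overlapped. It fell by 1.07 ± 0.23 in 4T07 (edgeR adjusted p of 0.00767), but without the tumour block the value of -0.92 had an adjusted p of 0.189. In D2A1, where Pros1 was far more abundant, it had 107, 75.6, 92.4 and 123 CPM in p27K high libraries, against 66.6, 58.3, 64.0 and 69.0 CPM in p27K negative libraries, with no overlap. It rose there by 0.61 ± 0.12 (edgeR adjusted p of 0.00228). The EMT6 levels averaged 5.33 ± 2.63 against 4.83 ± 2.03 CPM (SD, n = 4) with a change of 0.12 ± 0.13 and an edgeR adjusted p of 0.478.

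Axl was the most abundant TAM receptor transcript in every library. It lies on chromosome 7 (25757273 to 25788705, minus strand). In 4T07 it had 934, 646, 908 and 922 CPM in the p27K high libraries, against 1168, 1169, 1051 and 1095 CPM in the p27K negative libraries. All 4 p27K high libraries were lower than all p27K negative libraries, with tumour 2 lowest. The change was -0.41 ± 0.12 (edgeR adjusted p of 0.0252), and it depended on single tumours: it was -0.26 without tumour 2 (adjusted p of 0.002) and -0.44 without tumour 1 (adjusted p of 0.0814). In EMT6, Axl had 451, 524, 553 and 495 CPM in p27K high libraries, against 621, 659, 699 and 601 CPM in p27K negative libraries, again with no overlap. It fell by 0.35 ± 0.04 (edgeR adjusted p of 0.00016). In D2A1 the 745, 669.9, 542 and 736 CPM of the p27K high libraries overlapped with the 658, 696, 645 and 833 CPM of the p27K negative libraries, and the change of -0.08 ± 0.12 had an edgeR adjusted p of 0.654.

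Mertk, the receptor best known from the uptake of dying cells by macrophages (chromosome 2, 128698956 to 128802894, plus strand), was at 1.37, 0.932, 2.26 and 1.52 CPM in the p27K high libraries of 4T07, against 2.93, 4.06, 7.66 and 4.58 CPM in the p27K negative libraries. No p27K high library reached the lowest p27K negative library, and tumour 3 was highest in both gates, as for Gas6. Mertk fell by 1.63 ± 0.23 there (edgeR adjusted p of 0.00133). In D2A1 it was at 5.71, 6.85, 5.40 and 7.75 CPM in p27K high libraries, against 1.48, 5.13, 4.97 and 4.599 CPM in p27K negative libraries. The gates did not overlap and the p27K high library was the higher in 4 of 4 tumours, but the p27K negative levels of tumours 1 to 3 rested on 2, 11 and 9 counts. The change of 0.67 ± 0.29 had an edgeR adjusted p of 0.102, and without tumour 3 it was 0.79 with an adjusted p of 0.0485. In EMT6 Mertk had 11, 1, 0 and 3 counts in p27K high libraries against 4, 2, 3 and 4 counts in p27K negative libraries and was not tested. The antisense gene Gm14011 and a small nucleolar RNA gene lie within Mertk.

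Tyro3, the third TAM receptor (chromosome 2, 119797733 to 119818104, plus strand), was the receptor transcript that fell in all 3 lines. Its level in 4T07 was 7.05, 2.67, 7.17 and 8.30 CPM in p27K high libraries, against 19.4, 14.6, 18.3 and 20.8 CPM in p27K negative libraries. In D2A1 the p27K high libraries had 36.5, 30.9, 32.4 and 33.7 CPM and the p27K negative libraries 50.3, 49.0, 46.9 and 52.4 CPM. In EMT6 the levels were 21.6, 20.7, 24.3 and 23.4 CPM in p27K high libraries, against 42.4, 43.9, 45.3 and 43.0 CPM in p27K negative libraries. The gates did not overlap in any line, and tumour 2 of 4T07 was the lowest p27K high library. The log2 changes in 4T07, D2A1 and EMT6 were -1.61 ± 0.20, -0.58 ± 0.12 and -0.96 ± 0.06, with edgeR adjusted p-values of 0.000685, 0.00362 and 2.29e-06, and without tumour 2 the 4T07 change was -1.38 (adjusted p of 1.07e-06). No gene in the annotation used overlaps Axl or Tyro3.

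Per length, in CPM per kilobase of merged exons, Axl made up almost all of the summed TAM receptor transcript level. Its share was 99.2% ± 0.196 in p27K high libraries against 98.2% ± 0.365 in p27K negative libraries of 4T07 (SD, n = 4), 95.1% ± 0.496 against 94.0% ± 0.404 in D2A1, and 96.4% ± 0.346 against 94.8% ± 0.218 in EMT6. Tyro3 made up 0.576% against 1.30% in 4T07, 3.87% against 5.39% in D2A1 and 3.49% against 5.22% in EMT6. Mertk made up 0.203% against 0.496% in 4T07, 1.06% against 0.623% in D2A1 and under 0.1% on average in both gates of EMT6. The summed TAM receptor level was 171 ± 27.9 against 227 ± 11.0 CPM per kilobase in 4T07, 141 ± 19.0 against 150 ± 17.5 in D2A1 and 104 ± 8.69 against 135 ± 8.80 in EMT6 (SD, n = 4).

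Gas1 (chromosome 13, 60174405 to 60177365, minus strand), encoded by a single exon block, had the widest ratio between group means among the 8 genes, with the lowest means, those of 4T07, resting on 3 to 16 counts per library. In D2A1 it had 458, 453, 433 and 534 CPM in the p27K high libraries, against 159.8, 184, 167 and 214 CPM in the p27K negative libraries. Every p27K high library was above every p27K negative library, and the ratio within tumours was 2.47 to 2.87. Gas1 rose by 1.37 ± 0.11, a 2.59-fold higher level (edgeR adjusted p of 8.56e-07). In EMT6 it had 23.0, 20.7, 25.1 and 24.4 CPM in p27K high libraries, against 16.01, 13.6, 10.6 and 16 CPM in p27K negative libraries, with no overlap, and rose by 0.74 ± 0.12 (edgeR adjusted p of 0.000724). In 4T07 the p27K high libraries held 3, 5, 16 and 8 Gas1 counts and the p27K negative libraries 4, 6, 7 and 7 counts in all, under 1 CPM in each library, and no test was made. A noncoding gene, Gm48488, overlaps Gas1 on the opposite strand.

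Bhlhe40 and Bhlhe41 rose in p27K high cells of every line, and no p27K high library overlapped with the p27K negative libraries of its line. Bhlhe40 (chromosome 6, 108660629 to 108666925, plus strand) had 309, 259, 271 and 222 CPM in p27K high libraries of 4T07, against 135, 129, 133 and 110.0 CPM in p27K negative libraries. In D2A1 the levels were 275, 254, 284 and 213 CPM against 157, 155, 158 and 134 CPM, and in EMT6 they were 255, 232, 220.0 and 243 CPM against 148, 178, 164 and 174 CPM. The ranges of the p27K high levels of the 3 lines overlapped. The log2 changes were 1.06 ± 0.08 in 4T07 (edgeR adjusted p of 4.44e-05), 0.76 ± 0.11 in D2A1 (0.000192) and 0.52 ± 0.07 in EMT6 (0.000189). The antisense gene 0610040F04Rik overlaps Bhlhe40 at its start and the unverified gene Gm43909 overlaps Bhlhe41, both on the opposite strand.

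Bhlhe41 (chromosome 6, 145858243 to 145865558, minus strand) was the less abundant of the pair and had the larger change in each line. In 4T07 it had 40.8, 73.5, 38.2 and 40.5 CPM in p27K high libraries, against 13.5, 15.7, 14.7 and 11.4 CPM in p27K negative libraries. In D2A1 the levels were 26.6, 29.2, 34.2 and 36.8 CPM in p27K high libraries against 12.6, 11.2, 13.2 and 11.8 CPM in p27K negative libraries. In EMT6 they were 13.3, 18.2, 21.8 and 23.8 CPM in p27K high libraries against 5.38, 8.91, 8.92 and 8.93 CPM in p27K negative libraries. Tumour 2 of 4T07 stood far above the other p27K high libraries, while the remaining 3 lay within 3 CPM of each other. The log2 changes were 1.76 ± 0.15, 1.42 ± 0.17 and 1.26 ± 0.09, which are 3.38-fold, 2.68-fold and 2.40-fold higher levels, with edgeR adjusted p-values of 0.000103, 2.98e-05 and 5.28e-06. Without tumour 2 the 4T07 change of Bhlhe41 was 1.60 (adjusted p of 3.54e-07). The per-length ratio of Bhlhe40 to Bhlhe41 was 8.46 ± 2.61 in p27K high libraries against 13.2 ± 1.12 in p27K negative libraries of 4T07 (SD, n = 4), 11.8 ± 2.66 against 17.7 ± 1.51 in D2A1 and 18.6 ± 6.08 against 30.6 ± 6.01 in EMT6.

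Promoter sequence is shown for Bhlhe41 and Tyro3, which moved in all 3 lines, and for Gas1, whose level differed most between lines. It is the 250 bases before the RefSeq start on GRCm38.p6, read 5′ to 3′ on the gene's strand. The windows are chr6:145865421-145865670 (minus strand) for Bhlhe41, chr13:60177536-60177785 (minus strand) for Gas1 and chr2:119799264-119799513 (plus strand) for Tyro3. Capitals mark CACGTG, the E-box core that BHLHE40 and BHLHE41 are known to bind.
Bhlhe41: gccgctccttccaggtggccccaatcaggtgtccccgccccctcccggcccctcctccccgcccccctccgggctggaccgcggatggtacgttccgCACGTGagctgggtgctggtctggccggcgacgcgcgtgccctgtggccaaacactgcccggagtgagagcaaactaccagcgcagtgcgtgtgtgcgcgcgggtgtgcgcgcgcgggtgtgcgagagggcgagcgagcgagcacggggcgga
Gas1: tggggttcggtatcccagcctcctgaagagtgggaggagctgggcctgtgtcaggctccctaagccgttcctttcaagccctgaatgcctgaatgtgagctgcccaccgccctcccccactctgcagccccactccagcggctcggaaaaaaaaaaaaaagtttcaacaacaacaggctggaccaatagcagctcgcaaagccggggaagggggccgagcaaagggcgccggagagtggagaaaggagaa
Tyro3: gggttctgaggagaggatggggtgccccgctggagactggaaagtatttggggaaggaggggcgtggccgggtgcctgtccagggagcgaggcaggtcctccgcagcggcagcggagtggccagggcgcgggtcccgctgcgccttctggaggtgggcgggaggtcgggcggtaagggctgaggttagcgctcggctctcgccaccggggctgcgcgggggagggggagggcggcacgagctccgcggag
The Bhlhe41 promoter held CACGTG at -153 to -148, a palindrome that contains ACGTG, the core of hypoxia response elements, on both strands. Of 32851 RefSeq promoters of this length, 1978 (6.02%) held CACGTG and 5444 (16.6%) held ACGTG on either strand. AGGTCA, a core motif of nuclear receptors, was in 4607 of them (14%). RefSeq promoters were matched for 7 of the 8 genes, with 2 for Nr2f1, and none of these windows held AGGTCA or, apart from that of Bhlhe41, either of the other 2 motifs. Such a match is a description of letters and not a measured binding site.

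Nr2f1 (chromosome 13, 78188973 to 78199757, minus strand), which encodes the nuclear receptor also called COUP-TF1, had the smallest changes of the 3 transcription factor genes in 4T07 and D2A1, while in EMT6 its change was close to that of Bhlhe40. Its level in 4T07 was 136.3, 141, 165 and 196 CPM in p27K high libraries, against 111, 112, 112 and 136.1 CPM in p27K negative libraries. The ranges just missed each other, and the p27K high library was the higher in 4 of 4 tumours. Nr2f1 rose by 0.43 ± 0.08 (edgeR adjusted p of 0.00486). In EMT6 it had 179.8, 133, 113 and 151 CPM in p27K high libraries, against 107, 114, 70.7 and 108 CPM in p27K negative libraries, and rose by 0.53 ± 0.08 (edgeR adjusted p of 0.000484) although the ranges overlapped. In D2A1 the levels were lower, at 44.5, 32.7, 69.1 and 35.05 CPM in p27K high libraries against 40.7, 29.4, 45.8 and 34.9 CPM in p27K negative libraries, and the change of 0.21 ± 0.14 had an edgeR adjusted p of 0.294. An antisense gene, A830082K12Rik, overlaps Nr2f1 at its start.

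**Figure D3:**
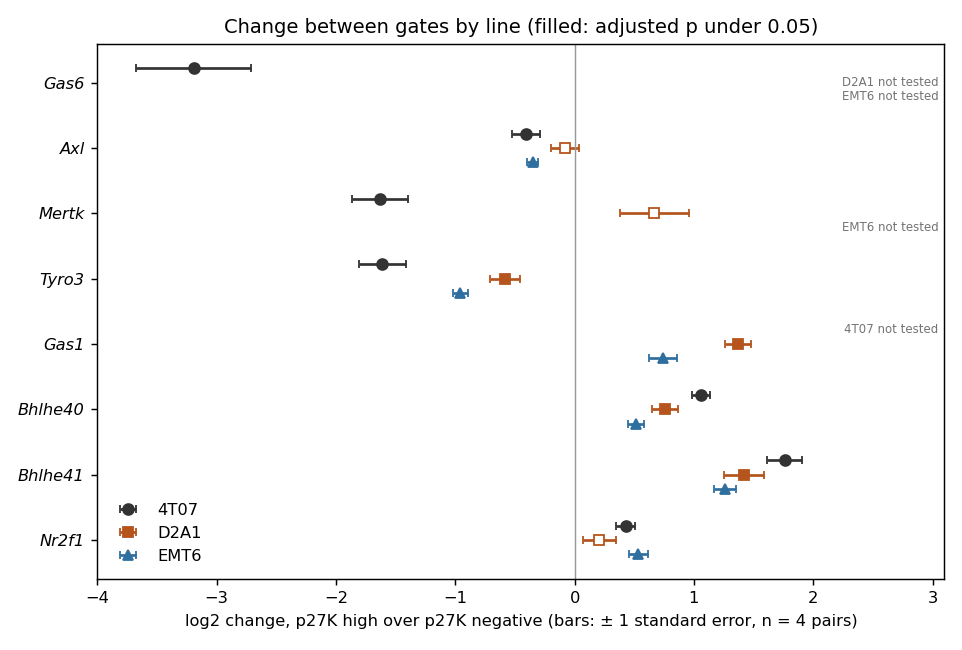
Log2 change of each gene between gates (p27K high over p27K negative), with bars of 1 standard error and n = 4 tumour pairs per line, filled symbols where the edgeR adjusted p was under 0.05. Tyro3 lies left of 0 and Bhlhe40 and Bhlhe41 lie right of 0 in all 3 lines, and Mertk lies at -1.63 in 4T07 and 0.67 in D2A1.

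The 3 lines were then fitted together, each of the 12 tumours being a block, for the mean change and for its difference between lines. The average is given for the 5 genes tested in every line, since Gas6, Mertk and Gas1 passed the filter on low counts through some of the lines alone. All 5 were called, against 52.4% of all 13578 genes tested. The rises were 1.52 ± 0.08 for Bhlhe41, 0.81 ± 0.05 for Bhlhe40 and 0.42 ± 0.06 for Nr2f1, with edgeR adjusted p-values of 5.21e-11, 2.02e-10 and 2.1e-05, and each was higher in the p27K high library in 12 of 12 tumours. For Nr2f1, not called in D2A1 alone, this count takes in D2A1 tumour 4, where the gates were nearly equal (35.05 against 34.94 CPM). The average changes of Axl and Tyro3 were -0.25 ± 0.06 and -1.01 ± 0.08, with edgeR adjusted p-values of 0.003 and 1.93e-08, and they were higher in the p27K high library in 1 and 0 of 12 tumours.

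The change differed between lines for 4 of the 8 genes, against 24.5% of all genes. The adjusted p-values of this test in edgeR were 0.00328 for Mertk, 0.00512 for Tyro3, 0.00587 for Bhlhe40 and 0.0117 for Gas1, and without the tumour blocks those of Tyro3 and Gas1 were 0.058 and 0.0951. The tests of Mertk and Gas1 also take in the few counts of EMT6 and 4T07 given above, so the pairs of lines with more counts are given here. For Mertk the change in D2A1 exceeded that in 4T07 by 2.32 ± 0.44 (adjusted p of 0.00155, against 23.3% of all genes called in that pair of lines). The D2A1 p27K negative libraries of tumours 1 to 3 held only 2, 11 and 9 Mertk counts, and the D2A1 change itself was not called. For Tyro3 the change exceeded that in 4T07 by 1.04 ± 0.21 in D2A1 and by 0.61 ± 0.20 in EMT6 (adjusted p of 0.0022 and 0.0459, with 15.0% of all genes called between EMT6 and 4T07). The change of Bhlhe40 in EMT6 lay below that in 4T07, at a difference of -0.57 ± 0.11 (adjusted p of 0.00387), and that of Gas1 in D2A1 above that in EMT6 by 0.69 ± 0.16 (adjusted p of 0.0251, against 3.45% of all genes). For Axl, Bhlhe41 and Nr2f1 the adjusted p-values of a difference between lines were 0.145, 0.0996 and 0.365. Pros1 had the smallest, at 0.000155, with a change in D2A1 above that in 4T07 by 1.67 ± 0.21 (adjusted p of 5.84e-05).

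The order of mean levels over the 6 groups is given as a description, because the lines come from separate runs. Gas1 was highest in D2A1 p27K high (469 ± 44.3 CPM), followed by D2A1 p27K negative (181 ± 24), EMT6 p27K high (23.3 ± 1.95) and EMT6 p27K negative cells (14.1 ± 2.57), and was lowest in 4T07 (0.273 ± 0.210 in p27K high and 0.177 ± 0.045 in p27K negative cells), and only the last pair of neighbours overlapped. Tyro3 was highest in D2A1 p27K negative cells (49.6 ± 2.29 CPM) and then in EMT6 p27K negative, D2A1 p27K high, EMT6 p27K high, 4T07 p27K negative and 4T07 p27K high cells (6.30 ± 2.48 CPM), with an overlap between the fourth and the fifth group alone. Bhlhe41 was highest in the p27K high gates of 4T07, D2A1 and EMT6 in this order, then in the p27K negative gates of 4T07, D2A1 and EMT6 (8.03 ± 1.77 CPM), and the fourth group overlapped with the third and the fifth. Axl was highest in 4T07 p27K negative cells (1121 ± 58.0 CPM), followed by 4T07 p27K high (852 ± 138), D2A1 p27K negative (708 ± 86.1), D2A1 p27K high (673 ± 93.9), EMT6 p27K negative (645 ± 43.3) and EMT6 p27K high cells (506 ± 43.6), and the first group alone stood apart from all others, while the last overlapped with D2A1 p27K high cells. Bhlhe40 fell into 2 blocks, the p27K high gates of 4T07 (265 ± 35.7 CPM), D2A1 (257 ± 31.5) and EMT6 (238 ± 14.9) above the p27K negative gates of EMT6 (166 ± 13.3), D2A1 (151 ± 11.1) and 4T07 (127 ± 11.5), with overlaps between neighbours within each block and none between the blocks. Gas6 was highest in 4T07 p27K negative cells (2.43 ± 2.08 CPM), and all neighbours in its order overlapped. Nr2f1 was lowest in both gates of D2A1, with 45.3 ± 16.7 CPM in p27K high and 37.7 ± 7.11 CPM in p27K negative cells, whose ranges overlapped with each other and with no other group. Mertk was highest in D2A1 p27K high cells (6.43 ± 1.08 CPM) and lowest in both gates of EMT6, which were under 1 CPM in each library.

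Other genes of the TAM pathway moved in both directions. The counts for this and all lists below stand beside 45.7%, 29.5% and 49.2% of all genes called in 4T07, D2A1 and EMT6. Rises were 22.1%, 14.9% and 24.1% of all genes and falls 23.6%, 14.7% and 25.1%. Several lists lay near these shares, and no list was tested as a set. The list of 10 genes for TAM ligands, their vitamin K dependent maturation and receptor shedding had 4 rises, 1 fall and 3 genes not called of 8 tested in 4T07, 4 rises and 4 not called of 8 in D2A1, and 1 rise, 3 falls and 4 not called of 8 in EMT6. Its median log2 change was 0.245, 0.25 and 0.0195, against -0.00335, 0.0219 and 0.0183 over all genes tested. Lgals3, the gene of galectin-3, which is also reported to bind MERTK, rose in all 3 lines and in EMT6 averaged 706 ± 87.1 against 476 ± 129 CPM (SD, n = 4), a change of 0.60 ± 0.08 (edgeR adjusted p of 0.000238). Calu, whose product calumenin restrains vitamin K dependent carboxylation, rose by 0.47 ± 0.07 in 4T07 (1658 against 1186 CPM) and was at -0.06 ± 0.11 in D2A1 and -0.05 ± 0.04 in EMT6. Adam10, which encodes a protease known to shed AXL, fell by 0.32 ± 0.06 in EMT6.

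Among TAM signalling and adaptor genes 3 rose, 6 fell and 12 were not called of 21 tested in 4T07, 6, 3 and 11 of 20 in D2A1, and 7, 7 and 5 of 19 in EMT6, with medians of -0.144, 0.214 and -0.00891. The kinase gene Akt1 fell in all 3 lines and Plcg1 and Ranbp9 rose in all 3, with Akt1 at -0.34 ± 0.11, -0.59 ± 0.11 and -0.37 ± 0.06. Vav1, an exchange factor of blood cells, fell by 2.59 ± 0.20 in 4T07 (1.69 against 10.5 CPM), alongside the macrophage markers given above, and its relation to them was not tested. C1qtnf1 rose in D2A1 (72.3 against 28.1 CPM) and by 0.84 ± 0.09 in EMT6, and the phosphatase gene Ptpn11 fell by 0.27 ± 0.04 in EMT6.

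Around Gas1, the hedgehog list had 3 rises, 4 falls and 7 not called of 14 tested in 4T07, 3, 2 and 9 of 14 in D2A1, and 4, 1 and 9 of 14 in EMT6 (medians of -0.0545, 0.237 and 0.142). Cdon, another hedgehog co-receptor, rose in all 3 lines by 1.32 ± 0.11, 0.61 ± 0.14 and 1.14 ± 0.15, and in 4T07, where Gas1 was under 1 CPM, it averaged 1741 ± 103 CPM in p27K high libraries against 706 ± 132 CPM in p27K negative libraries. The pathway factor Gli2 rose in D2A1 by 1.18 ± 0.19 and the receptor gene Ptch1 in EMT6 by 0.56 ± 0.07. Gli3 fell by 0.59 ± 0.08 in 4T07, Hhip, a decoy for hedgehog ligands, fell by 1.07 ± 0.22 in D2A1 but rose by 0.71 ± 0.10 in 4T07 and by 0.84 ± 0.26 in EMT6, and Sufu fell by 0.18 ± 0.06 in EMT6. Of the GDNF receptor family and its ligands, 2 rose and 1 was not called of 3 tested in 4T07, 4 of 4 were not called in D2A1, and 1 rose, 1 fell and 2 were not called of 4 in EMT6 (medians of 1.39, 0.322 and 0.25). The receptor gene Gfra2 rose in 4T07 by 2.06 ± 0.31 (7.32 ± 3.54 against 1.69 ± 0.578 CPM), the ligand gene Artn rose in EMT6 by 0.35 ± 0.09, and Gdf15, a stress-induced ligand, fell by 0.51 ± 0.10 there.

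Genes that share the growth arrest specific name did not share a direction. Of 7 tested, 1 rose and 3 fell in 4T07, 2 rose and 2 fell in D2A1, and 3 rose and 2 fell in EMT6 (medians of 0.214, 0.0576 and -0.00784). Gas2l3, whose product links actin and microtubules during cell division, changed by -3.98 ± 0.18, -3.51 ± 0.18 and -2.79 ± 0.08 in 4T07, D2A1 and EMT6, and in EMT6 averaged 6.18 against 42.7 CPM. Gas2 fell in all 3 lines too, and Gas7 rose in D2A1 by 0.90 ± 0.18 and in EMT6 by 1.24 ± 0.16. The noncoding Gas5, a host of small nucleolar RNAs, rose in 4T07 by 0.84 ± 0.12.

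Genes of the circadian clock, which BHLHE40 and BHLHE41 are known to repress, mostly rose where they were called. In 4T07, 9 rose, 1 fell and 6 were not called of 16 tested, in D2A1 8 rose and 8 were not called of 16, and in EMT6 11 rose and 4 were not called of 15, with medians of 0.481, 0.414 and 0.484. Per2, Cry2, Dbp and Tef rose in all 3 lines, with Per2 at 0.73 ± 0.10, 0.66 ± 0.16 and 0.98 ± 0.17. Cry1 rose by 1.00 ± 0.12 in 4T07 and was at -0.29 ± 0.20 in D2A1 and -0.21 ± 0.13 in EMT6. The output gene Hlf rose by 2.17 ± 0.24 in D2A1 (13.2 ± 5.76 against 3.01 ± 1.07 CPM) and Tef by 0.72 ± 0.06 in EMT6, while Rora fell by 2.55 ± 0.45 in 4T07 at levels of 0.193 against 1.17 CPM and rose by 0.60 ± 0.08 in EMT6, where it was abundant (230.3 against 149.5 CPM). Rora, the 1 clock gene that fell in 4T07, passed the filter on low counts there through the p27K negative libraries, where it was higher. The HES, HEY and ID relatives had 0 rises and 2 falls of 6 tested in 4T07, 4 rises and 0 falls of 7 in D2A1, and 2 rises and 1 fall of 5 in EMT6 (medians of 0.134, 0.414 and 0.159). Id1, an inhibitor of differentiation, fell by 0.69 ± 0.11 in 4T07 and by 0.55 ± 0.11 in EMT6, and Hes6 rose by 1.41 ± 0.16 in D2A1 and by 0.70 ± 0.10 in EMT6.

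Retinoid genes and the relatives of Nr2f1 had 6 rises, 1 fall and 6 not called of 13 tested in 4T07, 5, 2 and 8 of 15 in D2A1, and 8, 0 and 7 of 15 in EMT6 (medians of 0.235, 0.22 and 0.262). The retinoic acid receptor gene Rara, the retinoic acid degrading enzyme gene Cyp26b1 and the retinal reductase gene Dhrs3 rose in all 3 lines, with Cyp26b1 at 0.82 ± 0.12, 0.67 ± 0.22 and 1.33 ± 0.17. Nr2f2, the nearest relative of Nr2f1, was at 0.05 ± 0.15 in 4T07 (not called), fell by 0.46 ± 0.11 in D2A1 and rose by 0.32 ± 0.05 in EMT6. In D2A1 Rarb rose by 0.92 ± 0.19, while Crabp1, a binding protein for retinoic acid, averaged 0.0539 CPM in p27K high libraries against 4.17 CPM in p27K negative libraries. Crabp1, 1 of the 2 falls of this list in D2A1, passed the filter on low counts through the p27K negative libraries, where it was higher. Rxra fell by 0.36 ± 0.12 in 4T07.

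Of 25 other genes linked to dormancy, 10 rose, 2 fell and 6 were not called of 18 tested in 4T07, 9, 3 and 9 of 21 in D2A1, and 13, 0 and 6 of 19 in EMT6, with medians of 0.337, 0.35 and 0.511. Ndrg1, Klf4, Sox9, Tgfbr1, Tgfbr3, Thbs1 and Zfp281 rose in all 3 lines. Thbs1, the gene of thrombospondin-1, rose by 0.82 ± 0.04 in EMT6 and averaged 1271 ± 107 against 721 ± 90.6 CPM. Postn, the gene of the matrix protein periostin, fell by 1.94 ± 0.14 in D2A1 (13.6 ± 3.23 against 53.7 ± 18.5 CPM). Of the fibroblast markers, 3 rose and 4 fell of 10 tested in D2A1, and the relation of Postn to them was not tested. Cxcr4, a chemokine receptor gene of tumour and blood cells, fell by 2.47 ± 0.29 in 4T07 (3.38 against 19.1 CPM), with the macrophage markers given above falling in the same libraries, and its relation to them was not tested.

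**Figure D4:**
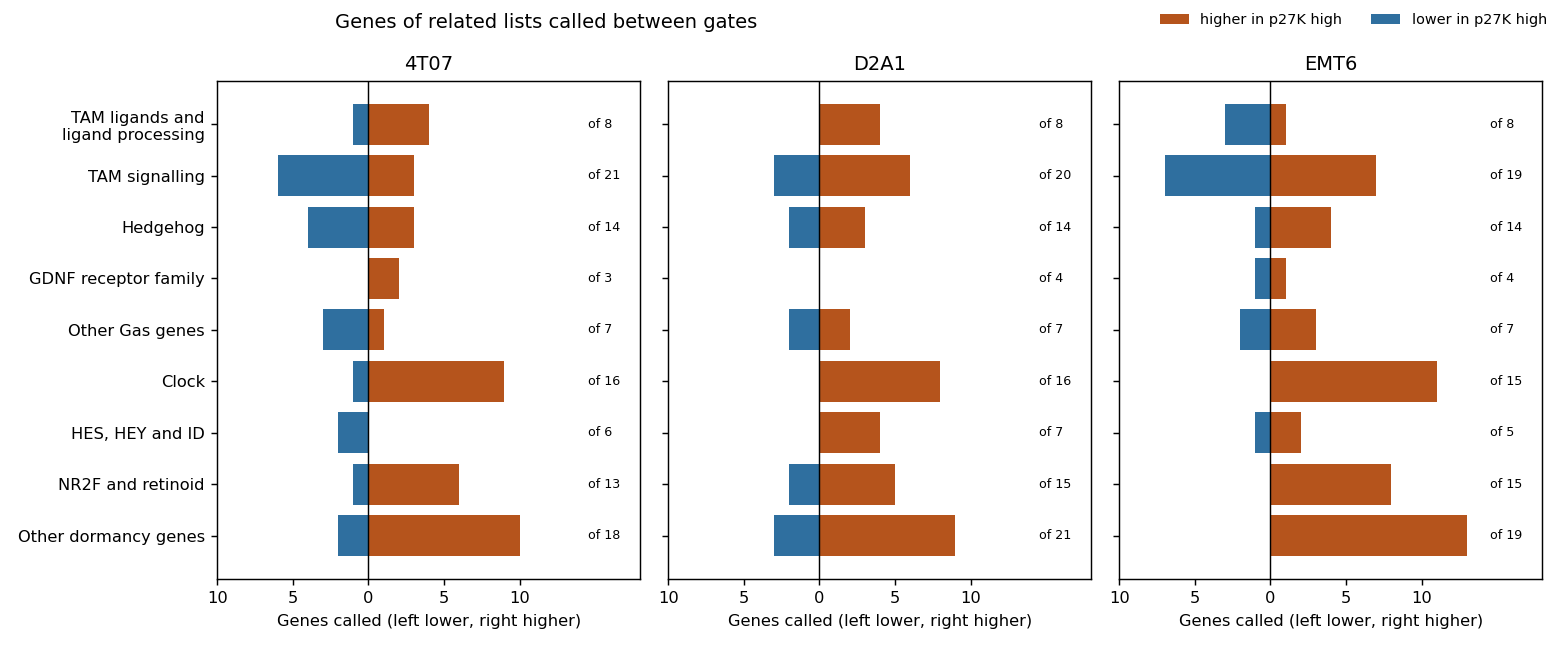
Number of genes called higher in p27K high cells (to the right of 0) and lower (to the left of 0) in each list of related genes, by line, with the number tested at the right. Clock genes had 9, 8 and 11 rises and 1, 0 and 0 falls in 4T07, D2A1 and EMT6, while TAM signalling genes had 3, 6 and 7 rises and 6, 3 and 7 falls. Of all genes tested, 45.7%, 29.5% and 49.2% were called in these lines.

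The genes most like each of the 5 tested in all 3 lines were found by Pearson's r of log2 CPM over the 24 libraries after centring each line on its mean, among 10141 genes. These libraries share tumours and the division into gates, so r is a description. For Bhlhe40 they were P4ha1 (0.961), Ndrg1 (0.961) and P4ha2 (0.951), which encode a prolyl hydroxylase subunit, a stress-induced protein and a further hydroxylase subunit. For Bhlhe41 they were the mitophagy receptor gene Bnip3l (0.962), Pgm2 (0.949) and Crebrf (0.948). For Tyro3 they were Lrwd1 (0.976), Rad54l (0.975) and Pold1 (0.967), all with known roles in DNA replication or repair. For Axl they were Sf3b4 (0.926), Pml (0.918) and Slc35a4 (0.909), and for Nr2f1 Sparc (0.826), Nit2 (0.814) and Acadm (0.806). Among the 5 genes themselves, r was 0.896 between Bhlhe40 and Bhlhe41, 0.834 between Axl and Tyro3, -0.897 between Tyro3 and Bhlhe41 and 0.480 between Bhlhe41 and Nr2f1.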

How the data were processed

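Per the labels' protocols, tumour cells were freed with enzymes, stained for CD45 and sorted, and GENEWIZ did the sequencing and the counting. The authors deposited raw, unnormalized counts per gene, with 1 table for each line. The submitters' processing notes name mm10 and DESeq2, while aligner, counter and strandedness are not given in these sources. Blank, total and 4 date-like entries per table were left out (blank names held at most 0.0109% of counts), and repeated symbols were summed.

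The quasi-likelihood fit of edgeR 4.0.16 under R 4.3.3, with limma 3.58.1, used TMM scaling, its default filter and a tumour block, and p-values were adjusted over all genes tested. Standard errors are the change over the square root of F. Tumour numbers in the labels pair the gates in 4T07 and D2A1. EMT6 column numbers 0, 1, 2 and 4 were used as pairs, since libraries of the same number deviated alike from their gate means (r of 0.615, 0.574, 0.813 and 0.648 over 5000 genes, against 0.0834 to 0.801 in the other lines). P-values of the blocked fits rest on how the gate difference within a tumour varied from tumour to tumour, with variances moderated over genes. The fits were also run on simulated counts in which far fewer genes changed than were called here, and the outcome is not given. Exon lengths and coordinates are from GENCODE vM21 on GRCm38.

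The genes, lists and tests were chosen with earlier results of these data known. List genes named are, per line and direction, the called gene with the smallest p, together with those called the same way in all 3 lines, Nr2f2 and the marker genes, chosen after their values were seen. Some genes that this rule names are not reported here. Alternatives were no block, other scalings and filters, DESeq2 1.42.0 and leaving out each tumour.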

Additional observations from a re-analysis of the deposited data

Results flagged for a closer look

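Of 60 groups of 4 libraries or of 4 within-tumour differences, 12 had a sample apart from the rest by a gap test that chance passes in about 1 of 20 groups. In 4T07 tumour 2, the p27K high library held Axl at 646 CPM, below the others, and Bhlhe41 at 73.5 CPM, above the others, and the within-tumour log2 difference was lowest for Gas6 (-4.40, with a prior count of 2, since no Gas6 was counted in the p27K high library) and Tyro3 (-2.42). Without that tumour the 4T07 changes of all 4 genes kept their direction and their call. In the other 4T07 tumours, the p27K negative library of tumour 3 had Gas6 at 5.53 CPM, that of tumour 4 had Nr2f1 at 136.1 CPM, and tumour 1 had the highest Bhlhe40 difference (1.19).

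In D2A1, the p27K negative library of tumour 1 held Mertk at 1.48 CPM (2 counts) and that of tumour 4 held Bhlhe40 at 134 CPM. In EMT6, tumour 2 had the highest Gas1 difference (1.24) and its p27K negative library the lowest Nr2f1 (70.7 CPM), and the p27K negative library of tumour 0 had the lowest Bhlhe41 (5.38 CPM).

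The gate change differed between the 3 lines for Tyro3 and Bhlhe40, by the edgeR test of equal change in the joint fit. Their adjusted p-values were 0.00512 and 0.00587. The same test gave 0.00328 for Mertk and 0.0117 for Gas1, but it cannot compare all 3 lines for these genes. Mertk had 0 to 11 counts per library in EMT6, and Gas1 had 3 to 16 in 4T07. Outside EMT6, the Mertk change in D2A1 exceeded that in 4T07 by 2.32 (edgeR adjusted p of 0.00155). That difference rests in part on the D2A1 p27K negative libraries of tumours 1 to 3, with 2, 11 and 9 Mertk counts, and the D2A1 change itself was not called. The Gas1 change in D2A1 exceeded that in EMT6 by 0.69 (edgeR adjusted p of 0.0251).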

How the results depend on the processing

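Of 318 changes of the 8 genes recomputed under the alternatives, 315 kept their direction and their side of the threshold. The exceptions were Axl in D2A1, never called, at 0.00689 without a filter on low counts (adjusted p of 0.984), Axl in 4T07 without tumour 1 (-0.44, adjusted p of 0.0814) and Mertk in D2A1 without tumour 3 (0.79, adjusted p of 0.0485). Leaving out a tumour at a time, Pros1 on average ranged from -0.112 to 0.00935, which was the value without 4T07 tumour 2 (adjusted p of 0.946), and Cdkn1b in D2A1 had an adjusted p of 0.0559 without tumour 4. Without the replicate block, 1607 rather than 3332 genes and 2 rather than 4 of the 8 (Mertk and Bhlhe40) differed between lines, and leaving out the block ended no other call of these 8. In that test Bhlhe41 had an adjusted p of 0.0461 without 4T07 tumour 3 and Gas6, near the detection limit in D2A1 and EMT6, 0.0399 without D2A1 tumour 1. The cause was not tested.

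Leaving out a tumour at a time gave 3698 to 7727 genes called in 4T07 (5868 with all), 2444 to 5051 in D2A1 (3794), 5084 to 6984 in EMT6 (6567), 6502 to 7650 on average (7110) and 2506 to 3733 differing between lines (3332), the lowest in 4T07 and D2A1 without tumour 1. The genes called of the 8 were 6 to 7, 4 to 5, 6, 7 and 4 to 5, and the 7 on average include Gas6 and Gas1, which were too low to test in some lines. Scaling by total counts moved the 4T07 median by -0.135 and the share of rises among calls to 33.2% against 48.3% as reported (40.9% against 54.1% on average), and no call of the 8 was lost. Under it Nr2f1 in 4T07 was at 0.29 with an adjusted p of 0.0334. A stricter filter of 5 CPM in 4 libraries left Gas6 and Mertk untested in 4T07. Precision was limited for Gas6 in D2A1 and EMT6, Mertk in EMT6 and in 3 D2A1 p27K negative libraries and Gas1 in 4T07, all at 16 or fewer counts per library. Depth was low in those 3 D2A1 libraries. Levels were low in EMT6, in 4T07, the deepest line, and for Gas6 in D2A1. The D2A1 p27K high library of tumour 1, with 20174767 counts, held 1 Gas6 count.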
